A study of Zea mays with 2 samples.

Results

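Low-gene mesophyll barcodes were droplet barcodes of maize leaf protoplasts that carried mesophyll (MS) transcripts but had 1800 or fewer detected genes, the limit under which the study set barcodes aside. Their counterpart, called kept below, were mesophyll barcodes above that limit. A barcode on either side had at least 10 unique molecular identifiers (UMIs, 1 per counted transcript molecule) of the MS markers PEP1 (Zm00001d046170), CAH1 (Zm00001d044099) and MDH6 (Zm00001d031899), and more of these than of the bundle sheath (BS) markers ME1 (Zm00001d000316), RBCS1 (Zm00001d052595), RBCS2 (Zm00001d004894) and PCK1 (Zm00001d028471). Kept barcodes also had fewer than 7000 detected genes, less than 4% of UMIs from the chloroplast genome and less than 0.75% from the mitochondrial genome. By this rule 4146 of 13444 barcodes were low-gene (2217 in library 1 and 1929 in library 2) and 7278 were kept (3968 and 3310). A further 256 mesophyll barcodes with over 1800 genes failed one of the other limits and entered neither side. Both libraries came from untreated B73 plants, each from 1 pool of protoplasts. A pool took a segment of 6 cm near the tip of leaf 2 from each of 6 plants, so that neither genotype nor treatment differed between them. The 7340 barcodes of library 1 held 88081896 UMIs and the 6104 of library 2 held 41924567. The libraries had 11 barcode sequences in common.

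Maize leaves fix carbon by C4 photosynthesis, which is shared between both cell types. In MS cells, carbonic anhydrase and phosphoenolpyruvate carboxylase capture CO2 into a C4 acid, which is reduced to malate. In BS cells, malic enzyme and phosphoenolpyruvate carboxykinase release the CO2 again for Rubisco. A droplet library holds intact protoplasts, but droplets can also receive damaged cells that have lost cytosolic RNA, or RNA that floats free in the suspension, and limits on detected genes and on organelle RNA are the usual way to set such barcodes aside.

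With 10 or more MS marker UMIs low-gene barcodes made up about the same share of mesophyll barcodes in both libraries, but differed between them in depth. They were 34.6% of the 6401 mesophyll barcodes of library 1 (95% exact binomial interval 33.5% to 35.8%) and 36.5% of the 5279 of library 2 (35.2% to 37.9%). This depended on the marker minimum, since with at least 30 MS marker UMIs the shares were 18.2% (17.1% to 19.3%) in library 1 and 25.0% (23.7% to 26.3%) in library 2. In library 1, low-gene barcodes had a median of 688 detected genes and 1274 UMIs, against 4064 genes and 19083 UMIs in kept barcodes. In library 2 the medians were 1252 genes and 2848 UMIs in low-gene barcodes, against 2648 genes and 9447.5 UMIs in kept barcodes. Of the low-gene barcodes, 1638 of library 1 (73.9%) and 643 of library 2 (33.3%) had 1000 or fewer genes. Around the limit, 117 low-gene barcodes of library 1 had 1600 to 1800 genes, whereas 96 mesophyll barcodes had 1800 to 2000, 55 of them kept and 41 outside another limit. In library 2, 415 low-gene barcodes had 1600 to 1800 genes and 438 mesophyll barcodes had 1800 to 2000, 417 of them kept. The limit therefore passed through a range that held fewer barcodes in library 1 than in library 2. The sides were chosen by detected genes, marker UMIs and organelle shares, so these values are a description and carry no test.

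**Figure D1:**
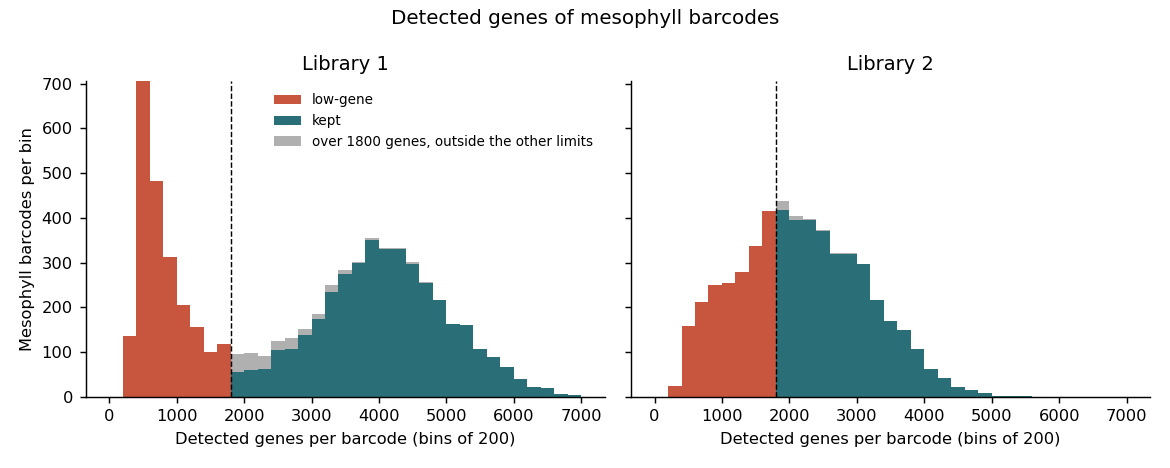
Number of mesophyll barcodes (y axis) per bin of 200 detected genes (x axis) in each library, coloured by side, with a dashed line at 1800 genes. Library 1 has a separate low-gene peak below 1000 genes, whereas in library 2 the low-gene side (1929 barcodes) runs into the kept side without a gap.

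Much of the difference in detected genes went with depth. When 1000 UMIs were drawn from each barcode, which left out 797 low-gene barcodes of library 1 and 186 of library 2 that were shallower, low-gene barcodes had a median of 569 genes and kept barcodes 610 in library 1. In library 2 the medians at 1000 UMIs were 591 genes in low-gene and 607 in kept barcodes. The marker rule also acted on depth, because a shallow barcode reached 10 MS marker UMIs only where these markers took a large part of its RNA. Low-gene barcodes held 20567 and 14759 MS marker UMIs per 1000000 UMIs (CPM) in library 1 and library 2, against 12540 and 13653 CPM in kept barcodes. Of the low-gene barcodes, 837 of library 1 and 511 of library 2 had fewer than 20 MS marker UMIs, against 4 and 26 of the kept barcodes.

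MS genes that the rule did not use are given for both sides, with no level from other cell types beside them. Their list came from the study, in part from these samples, and is not independent of them. PDK1 (Zm00001d038163), the pyruvate phosphate dikinase that regenerates the CO2 acceptor, stood at 10400 and 10170 CPM in low-gene barcodes of library 1 and library 2, and at 5231 and 8818 CPM in kept barcodes. PDRP1 (Zm00001d006520), which regulates that enzyme, had 1351 and 1747 CPM in low-gene and 1660 and 1967 CPM in kept barcodes. The glycerate kinase gene GLYK (Zm00001d035737), of photorespiration, had 353 and 513 CPM in low-gene and 513 and 680 CPM in kept barcodes. GLN4 (Zm00001d017958), a glutamine synthetase gene, had 178 and 216 CPM in low-gene and 187 and 217 CPM in kept barcodes. All 4 genes were therefore detected on both sides of each library, PDK1 at a higher level on the low-gene side, chiefly in library 1. RNA freed from mesophyll protoplasts would carry the same transcripts, and its part in these values was not tested. In the comparison, 0 of the 4 passed the test described next (0 also at an unadjusted p under 0.05 with edgeR, and 0 with DESeq2, median log2 fold change -0.25).

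Expression on both sides was compared on UMIs summed per library and side, giving 4 sums of 3766424 and 5707885 UMIs for low-gene barcodes and 79436195 and 34373828 UMIs for kept barcodes. Of 17151 nuclear genes tested, markers of the rule left out, 1186 (6.92%) had an adjusted p under 0.05 in the quasi-likelihood test of edgeR, with library as a term and Benjamini-Hochberg adjustment. In low-gene barcodes 1080 were higher (6.3%) and 106 lower (0.618%), and 1181 of the 1186 went one way in library 1 and library 2. Over the tested genes as a whole the log2 fold change had a median of -0.04. The libraries contributed unequally, with a median absolute log2 ratio of the called genes of 1.98 in library 1 and 1.05 in library 2. The number of detected genes sums over all genes, so each tested gene entered the rule with at most 1 count per barcode. With sides split on even-numbered gene IDs alone, 523 of 8551 odd-numbered genes passed, against 551 of 8550 with the sides as given. Of these, 515 were called both times, all in the same direction. That split was set to give about as many low-gene barcodes (2217 and 1931), and detected genes of either kind follow depth. It therefore cannot show that the calls are free of the choice by detected genes.

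The count of calls depended strongly on which low-gene barcodes were used. With 1000 or fewer genes on the low-gene side 5372 genes passed (32.3% of those tested), 2521 higher (15.1% of those tested, 46.9% of the calls) and 2851 lower (17.1% of those tested), whereas with over 1000 genes 195 passed. When low-gene barcodes were held to the organelle limits too, which left 468 of library 1 and 1334 of library 2, 24 genes passed. In that fit 1121 of the 1129 called genes that could be tested had the direction given above, with a median absolute log2 fold change of 1.04 in place of 1.52. With DESeq2 241 genes passed, and without the library term 0 did (1295 at an unadjusted p under 0.05 with edgeR). The calls below are those of the sides as defined, and rest on a variance shared by all genes, since 4 sums leave 1 residual degree of freedom.

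**Figure D2:**
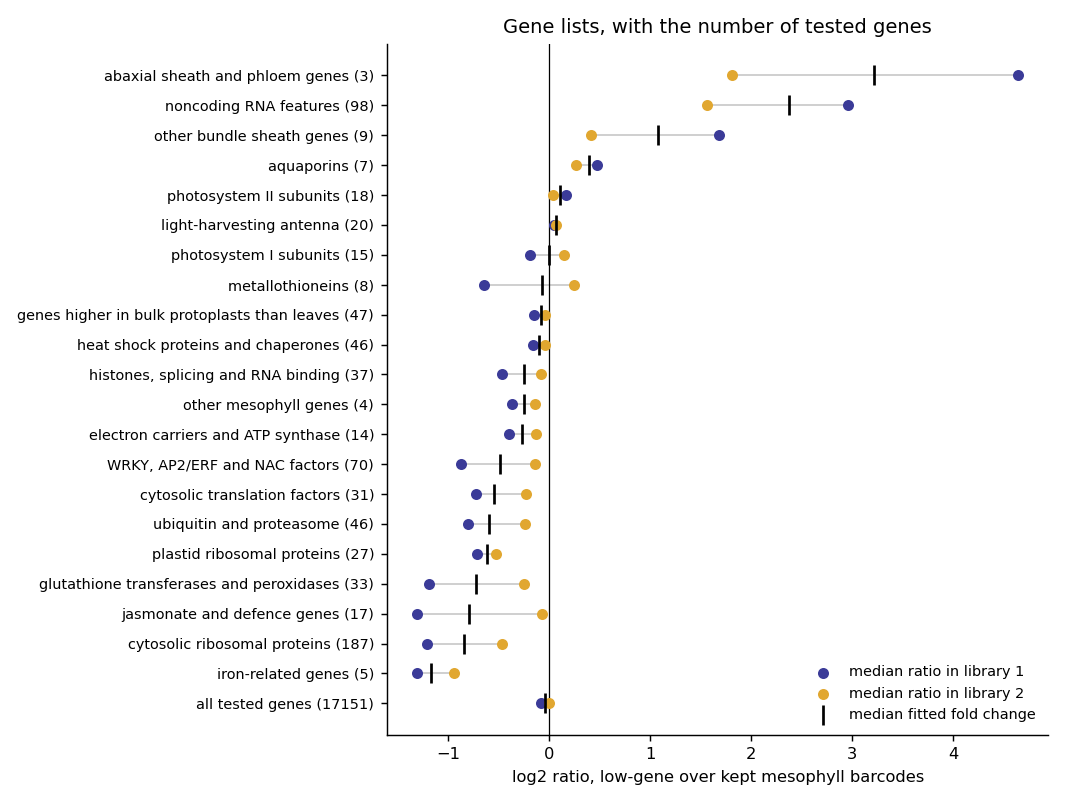
Median log2 ratio of low-gene over kept barcodes (x axis) for the gene lists (y axis, number of tested genes in parentheses), with blue points for library 1, yellow points for library 2 and a black bar for the fitted fold change. Noncoding RNA features and both lists of sheath genes lie to the right in both libraries, ribosomal protein genes lie to the left, and photosystem and antenna genes lie close to 0. In the list of abaxial sheath and phloem genes only SWEET13 genes could be tested.

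Noncoding RNA features were higher in low-gene barcodes. These are features whose IDs begin with ENSRNA, the prefix that Ensembl gives to noncoding RNA genes. The files do not say which RNA each one is, and the group was formed after its values were seen. Summed over all 1765 features, they took 9370 and 6484 CPM in low-gene barcodes of library 1 and library 2, against 891 and 1988 CPM in kept barcodes. Of 98 features with enough UMIs to be tested, 68 were higher (69.4%) and 0 lower, where 6.3% of all tested genes were called higher. Their median log2 fold change was 2.37. Features that are high on the low-gene side alone could pass the low-count filter through that side, so this count is no measure of all 1765. A handful of abundant features carried the sum. ENSRNA049465110 had 3233 and 948 CPM in low-gene and 197 and 326 CPM in kept barcodes, a log2 fold change of 2.68 ± 0.54 (SE, edgeR adjusted p 9.00e-05). ENSRNA049459267 had 798 and 474 CPM in low-gene and 45.8 and 87.6 CPM in kept barcodes, with 3.17 ± 0.49 (adjusted p 5.02e-08). These 2 features were named as the largest called rises without a description. That both low-gene values lay above both kept values for each is therefore no added support. ENSRNA049462348, ENSRNA049459300 and ENSRNA049468238, named after their values were seen, rose by log2 fold changes of 2.17, 2.33 and 2.46. By contrast ENSRNA049455185, also chosen after the fact as the next most abundant, had 12.2 and 40.1 CPM in low-gene and 13.5 and 34.4 CPM in kept barcodes.

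Organelle RNA was compared with the kept side freed of its organelle limits, so that the rule did not set the values. This added 212 barcodes of library 1 and 40 of library 2, and in that fit 6.79% of nuclear genes passed (6.14% higher, 0.647% lower). Mitochondrial features made up 1.03% and 0.485% of UMIs in low-gene barcodes, against 0.136% and 0.165% in barcodes with over 1800 genes. Of 49 mitochondrial features tested, 40 were higher and 0 lower in low-gene barcodes (median log2 fold change 1.94). ZeamMr002, the RNA of the large subunit of mitochondrial ribosomes, had 4115 and 1957 CPM in low-gene barcodes, against 384 and 373 CPM, higher by 2.80 ± 0.52 on the log2 scale (edgeR adjusted p 1.64e-05). Chloroplast features made up 5.86% and 1.75% of UMIs in low-gene barcodes, against 1.95% and 1.34%, and 26 of the 48 tested were higher and 0 lower (median 1.26). The chloroplast share was thus raised chiefly in library 1, where its median ratio was 1.92 on the log2 scale, against 0.58 in library 2. The most abundant chloroplast feature, ZemaCp019, had 8968 and 3199 CPM in low-gene barcodes, against 3236 and 2876 CPM, and did not pass (adjusted p 0.425).

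Transcripts of other cell types took a larger part of low-gene than of kept barcodes. The list of other BS genes came from the study, in part from these samples, and is not independent of them. Its 10 genes together had 827 CPM (95% exact Poisson interval 798 to 857) in low-gene barcodes of library 1 and 385 CPM (369 to 402) of library 2, against 277 CPM (273 to 281) and 323 CPM (317 to 330) in kept barcodes. For scale, the 294 and 84 barcodes that were BS by the same 7 markers had 20249 and 27046 CPM. Counted per barcode, the order was the other way, with 1.41 and 1.14 UMIs in a low-gene barcode and 5.55 and 3.36 in a kept one. Of 9 genes tested, 4 were higher (44.4%) and 0 lower, where 6.3% of all tested genes were called higher. Their median log2 fold change was 1.07. Genes rare on the kept side could pass the low-count filter through the low-gene side. Without that filter 3 of the 10 were higher and 0 lower.

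The 4 BS genes that rose were the FBPA pair, RBCL and SHBP1. FBPA (Zm00001d023559), a fructose-bisphosphate aldolase gene, had 181 and 27.7 CPM in low-gene and 7.47 and 7.88 CPM in kept barcodes of library 1 and library 2, higher by 3.13 ± 0.44 on the log2 scale (SE, edgeR adjusted p 9.05e-10). Its paralog FBPA (Zm00001d053015) had 47 and 15 UMIs in low-gene and 33 and 18 UMIs in kept barcodes, although the kept sums held far more UMIs in all, and rose by 3.69 ± 0.52 (adjusted p 1.04e-09). This paralog was so rare on the kept side that it could pass the low-count filter through the low-gene side. RBCL (Zm00001d006402), a nuclear gene ID that the study lists for the large subunit of Rubisco, had 190 and 60.6 CPM in low-gene and 37.9 and 31.6 CPM in kept barcodes (1.53 ± 0.40, adjusted p 0.00621). The study marks this ID as genomic with introns, and whether reads of the chloroplast gene reached it was not checked. SHBP1 (Zm00001d042840), sedoheptulose-bisphosphatase, had 54.7 and 24.5 CPM in low-gene and 15.0 and 14.7 CPM in kept barcodes (adjusted p 0.0254). All 4 were higher on the low-gene side of each library, and most of all in library 1. RCA2 (Zm00001d048593), Rubisco activase, had 115 and 43.8 CPM in low-gene and 34.3 and 34.8 CPM in kept barcodes and did not pass (adjusted p 0.124), nor did the transketolase gene TK1 (Zm00001d045451), with 124 and 78.7 CPM in low-gene and 45.8 and 57.0 CPM in kept barcodes. GLN3 (Zm00001d028260), a glutamine synthetase gene, had 5.05 and 4.73 CPM in low-gene and 1.86 and 4.10 CPM in kept barcodes. MDH (Zm00001d034241), a malate dehydrogenase gene, had 141 and 142 CPM in low-gene and 134 and 172 CPM in kept barcodes, so its groups overlapped. The amino acid transporter gene UmamiT20a (Zm00001d044951) had 10 and 2 UMIs in low-gene and 51 and 17 UMIs in kept barcodes, and PRK2 (Zm00001d000164), phosphoribulokinase, had too few to be tested (3 and 0 in low-gene, 11 and 2 in kept barcodes). The BS markers that the rule used behaved likewise, as a description without a test. ME1 had 196 and 23.8 CPM in low-gene and 7.69 and 6.02 CPM in kept barcodes, and PCK1 had 117 and 14.4 CPM in low-gene and 4.97 and 4.54 CPM in kept barcodes. RBCS1 had 411.5 and 158.2 CPM in low-gene and 98.6 and 118.3 CPM in kept barcodes. RBCS2 had 197.8 and 45.6 CPM in low-gene and 42.9 and 28.9 CPM in kept barcodes. Their log2 ratios in library 2 were only 0.37 and 0.61.

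The study proposes that abaxial BS cells export sucrose towards the phloem. As a sum, genes of these cells and of phloem followed the same order on very few UMIs, but SUT1 did not. The 5 genes together had 129 and 60 UMIs in low-gene barcodes and 130 and 107 in kept barcodes, which is 34.2 and 10.5 CPM against 1.64 and 3.11 CPM. Per barcode this was 0.0582 and 0.0311 UMIs on the low-gene side and 0.0328 and 0.0323 on the kept side, so that in library 2 both kinds of barcode held nearly the same number of these molecules. SWEET13a (Zm00001d023677), a sucrose exporter gene, had 76 and 25 UMIs in low-gene and 51 and 40 UMIs in kept barcodes (log2 fold change 3.45 ± 0.48, edgeR adjusted p 9.05e-10). SWEET13c (Zm00001d041067) had 43 and 30 UMIs in low-gene and 27 and 56 UMIs in kept barcodes (3.22 ± 0.48, adjusted p 2.07e-08). SWEET13b (Zm00001d023673) had 2 and 4 UMIs in low-gene and 6 and 5 UMIs in kept barcodes and did not pass. SWEET13b and SWEET13c, rare on the kept side, could enter the test through the low-gene side alone. Without the low-count filter 2 of the 5 genes were higher and 0 lower. UmamiT21a (Zm00001d035717), with 7 and 1 UMIs in low-gene and 4 and 4 in kept barcodes, could not be tested. SUT1 (Zm00001d027854), the sucrose transporter gene of companion cells, had 1 and 0 UMIs in low-gene barcodes, where 0 of 5707885 allows up to 0.526 CPM, and 42 and 2 UMIs in kept barcodes. In library 1 this was 0.27 against 0.53 CPM, the opposite order to the SWEET13 genes. The SWEET13 paralogs are close in sequence, and how the counting divided shared reads was not checked. The part of free RNA in the values of sheath and phloem genes was not tested.

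Genes for cytosolic ribosomal proteins were lower in low-gene barcodes. Their 187 genes together took 5290 and 7330 CPM in low-gene barcodes, against 11551 and 9316 CPM in kept barcodes. All 187 had a fitted log2 fold change below 0 (186 without scaling factors), 182 of them lay below 0 in both libraries, and the median was -0.84, against -0.04 over all tested genes. Of these genes 14 passed (7.49%), all lower, where 0.618% of all tested genes were called lower. Among the 14, genes for protein L23 of the large subunit (Zm00001d051929) and protein S14 of the small subunit (Zm00001d036568) had log2 fold changes of -1.35 and -1.49. The first had 11.2 and 12.8 CPM in low-gene and 40.2 and 20.3 CPM in kept barcodes, and the other had 3.45 and 4.03 CPM against 13.1 and 7.54 CPM. The largest fall was that of an S12 gene (Zm00001d010220), with 3 and 4 UMIs in low-gene and 395 and 51 UMIs in kept barcodes. With 1000 or fewer genes on the low-gene side, 155 of the 187 passed, all lower, where 17.1% of all tested genes were called lower. In that setting the median ratio was -1.18 in library 1 and -1.21 in library 2.

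Other genes of translation lay below the kept side as well, without calls. The 27 plastid ribosomal protein genes had a median log2 fold change of -0.62, all 27 below 0 in both libraries, and 0 passed (0 higher, 0 lower), though 6 had an unadjusted p under 0.05 with edgeR and 0 passed with DESeq2. Genes for protein L15 (Zm00001d028240) and L6 (Zm00001d029201) of plastid ribosomes had the most negative values, -1.06 and -1.03. The 31 cytosolic translation factor genes had a median of -0.54, with 27 below 0 in both libraries and 0 calls (9 at an unadjusted p under 0.05 with edgeR, 0 calls with DESeq2). An elongation factor 1-gamma gene (Zm00001d046352) had 15.9 and 18.0 CPM in low-gene and 37.0 and 27.1 CPM in kept barcodes (adjusted p 0.0783). With 1000 or fewer genes on the low-gene side, 19 of the 27 plastid ribosomal and 14 of the 31 translation factor genes were called lower, and 1 translation factor gene higher.

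With the sides as defined, no difference was detected for nuclear genes of the photosynthetic membrane. The light-harvesting antenna binds the chlorophyll that feeds both photosystems. Its 20 genes took 59465 and 38642 CPM in low-gene and 48857 and 35241 CPM in kept barcodes, and 0 passed in either direction (median log2 fold change 0.07). Of 15 photosystem I genes and 18 photosystem II genes tested, 0 passed, with medians of 0.00 and 0.10. Of 14 genes for electron carriers and the ATP synthase, 0 passed (median -0.26). In these lists 0 genes had an unadjusted p under 0.05 with edgeR, and 0 passed with DESeq2. The most distant antenna gene on the higher side (Zm00001d015385) had 2999 and 1609 CPM in low-gene and 1204 and 1376 CPM in kept barcodes (0.66 ± 0.50, adjusted p 0.430). Ferredoxin-NADP reductase (Zm00001d045575), which passes electrons to NADP, had 624 and 990 CPM in low-gene and 986 and 1336 CPM in kept barcodes (-0.66 ± 0.47, adjusted p 0.405). Simulated sums gave recovery of only 8.3% at a log2 change of 1, so changes of that size could be missed. The signs of the medians near 0 turned with the setting. With the organelle limits on both sides, the medians of antenna, photosystem I and photosystem II genes were 0.38, 0.37 and 0.33. There 2 of 20, 0 of 15 and 3 of 18 genes lay below 0, and 0 passed. With 1000 or fewer genes on the low-gene side, where 32.3% of all tested genes were called, 1 of the 14 genes for electron carriers and the ATP synthase was higher and 5 were lower. In that setting 0 of the 20 antenna genes were higher and 1 lower, and 0 of 15 photosystem I and 0 of 19 photosystem II genes passed.

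Stress and defence genes were mixed and mostly lower in library 1. The 33 genes for glutathione transferases and peroxidases, which detoxify and oxidise, had 7358 and 12507 CPM in low-gene and 17590 and 13764 CPM in kept barcodes. Of them 0 were higher and 3 lower (9.09% called), where 6.3% of all tested genes were called higher and 0.618% lower. Their median log2 ratio was -1.19 in library 1 and -0.25 in library 2. Peroxidase 53 (Zm00001d010218) had 6.64 and 5.78 CPM in low-gene and 21.9 and 13.6 CPM in kept barcodes (-1.58 ± 0.41, edgeR adjusted p 0.00486). Of 17 jasmonate and defence genes tested, 1 was higher and 2 lower (17.6% called). Their median was -0.80, or -1.31 in library 1 and -0.07 in library 2. Chitinase 1 (Zm00001d032947), an enzyme against fungal walls, had 5.04 and 12.4 CPM in low-gene and 43.1 and 14.8 CPM in kept barcodes (-1.63 ± 0.41, adjusted p 0.00386). Against that trend lipoxygenase10 (Zm00001d053675), which oxidises fatty acids, had 2305 and 1035 CPM in low-gene and 496 and 565 CPM in kept barcodes (1.43 ± 0.49, adjusted p 0.0498). Its relative lipoxygenase6 (Zm00001d002000), with 598 and 242 CPM in low-gene and 150 and 145 CPM in kept barcodes, did not pass (1.26 ± 0.45, adjusted p 0.0587). Of 46 tested genes for heat shock proteins and chaperones 0 passed (4 at an unadjusted p under 0.05 with edgeR, 0 with DESeq2, median -0.10). ClpB1 (Zm00001d038806) had 352 and 508 CPM in low-gene and 165 and 287 CPM in kept barcodes. Of 46 tested genes of ubiquitin and the proteasome, 1 was higher and 1 lower (4.35% called, median -0.59). The higher one, a BOI-related ubiquitin ligase gene (Zm00001d003850), had 38.5 and 11.4 CPM in low-gene and 5.75 and 4.19 CPM in kept barcodes (2.01 ± 0.39, adjusted p 5.28e-05).

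Transcription factor genes of the WRKY, AP2/ERF and NAC families gave few calls. Of 70 tested, 2 were higher and 5 lower (median log2 fold change -0.49), that is 10% in all, where 6.3% of all tested genes were called higher and 0.618% lower. An AP2/ERF gene (Zm00001d027929) had 185 and 92.3 CPM in low-gene and 37.3 and 36.5 CPM in kept barcodes (1.71 ± 0.40, edgeR adjusted p 0.00152). Another of the family (Zm00001d038320) had 17.5 and 35.4 CPM in low-gene and 104 and 55.2 CPM in kept barcodes (-1.68 ± 0.41, adjusted p 0.00253), and a further one (Zm00001d038216) had 19.1 and 17.5 CPM against 66.1 and 34.0 CPM. The WRKY gene Zm00001d039032 fell chiefly in library 1, with 3.98 CPM in low-gene and 35.1 CPM in kept barcodes there, against 51.5 and 64.9 CPM in library 2. Of 37 genes for histones, splicing and RNA binding, 1 was higher and 3 lower (10.8% called, median -0.24). The higher one, a splicing factor gene (Zm00001d032319), had 58.1 and 30.7 CPM in low-gene and 18.0 and 18.3 CPM in kept barcodes, while a histone H2B gene (Zm00001d032070) had 1.86 and 7.88 CPM against 10.9 and 12.1 CPM.

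Among genes with a description and at least 20 CPM on average, the largest rise after FBPA was that of ethylene insensitive 2 (Zm00001d039341), a membrane protein of ethylene signalling, with 106 and 41.0 CPM in low-gene and 13.0 and 11.5 CPM in kept barcodes (log2 fold change 2.32 ± 0.39, edgeR adjusted p 9.97e-07). A MYB-domain gene (Zm00001d035605) had 31.1 and 48.7 CPM in low-gene and 2.29 and 22.1 CPM in kept barcodes (2.29 ± 0.40). The regulator gene golden plant2 (Zm00001d039260), known for chloroplast development in BS cells, had 75.4 and 16.3 CPM in low-gene and 13.2 and 7.19 CPM in kept barcodes (1.76 ± 0.38, adjusted p 0.000358). The ChlH subunit gene of magnesium chelatase (Zm00001d026603), which opens the chlorophyll branch of pigment synthesis, had 927 and 204 CPM in low-gene and 162 and 108 CPM in kept barcodes (1.61 ± 0.46, adjusted p 0.0135). A gene of the NPH3 family (Zm00001d023314), which takes part in responses to blue light, had 809 and 232 CPM in low-gene and 168 and 121 CPM in kept barcodes. These genes were named for large called rises of one direction in both libraries. That both low-gene sums lay above both kept sums for each of them is therefore no added support. Other genes that rose encode a DNA binding protein (Zm00001d013202, 1.91), a heparanase-like protein (Zm00001d045138, 1.86) and a pentatricopeptide repeat protein (Zm00001d051532, 1.60).

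Among genes at 20 CPM or more on average, the called genes that fell most, 12 with a description and 2 without, had log2 fold changes between -1.70 and -1.32. Beside the AP2/ERF and WRKY genes, the SRO1 gene (Zm00001d028307), related to poly(ADP-ribose) polymerases, had 12.5 and 28.2 CPM in low-gene and 55.7 and 46.6 CPM in kept barcodes (-1.51 ± 0.39, edgeR adjusted p 0.00552). Chitinase2 (Zm00001d036370) had 76.7 and 228 CPM in low-gene and 321 and 315 CPM in kept barcodes (-1.37 ± 0.45, adjusted p 0.0401). Carriers of the mitochondrial inner membrane were among them. The ADP/ATP carrier gene (Zm00001d045884) had 16.2 and 39.4 CPM in low-gene and 73.7 and 55.4 CPM in kept barcodes, and a phosphate carrier gene (Zm00001d020702) had 20.2 and 71.3 CPM against 112 and 72.9 CPM, so that its fall lay almost wholly in library 1. A further mitochondrial substrate carrier gene (Zm00001d047709) had 19.4 and 9.46 CPM in low-gene and 59.1 and 16.6 CPM in kept barcodes. A methyltransferase gene (Zm00001d036738, -1.41), CCG-binding protein 1 (Zm00001d013193, -1.39) and a Cue protein of the ubiquitin system (Zm00001d036761, -1.36) completed the described genes. Of those without a description, Zm00001d000502 had 9.03 and 17.9 CPM in low-gene and 49.7 and 31.8 CPM in kept barcodes, and Zm00001d012604 had 16.5 and 71.5 CPM against 67.5 and 122 CPM.

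**Figure D3:**
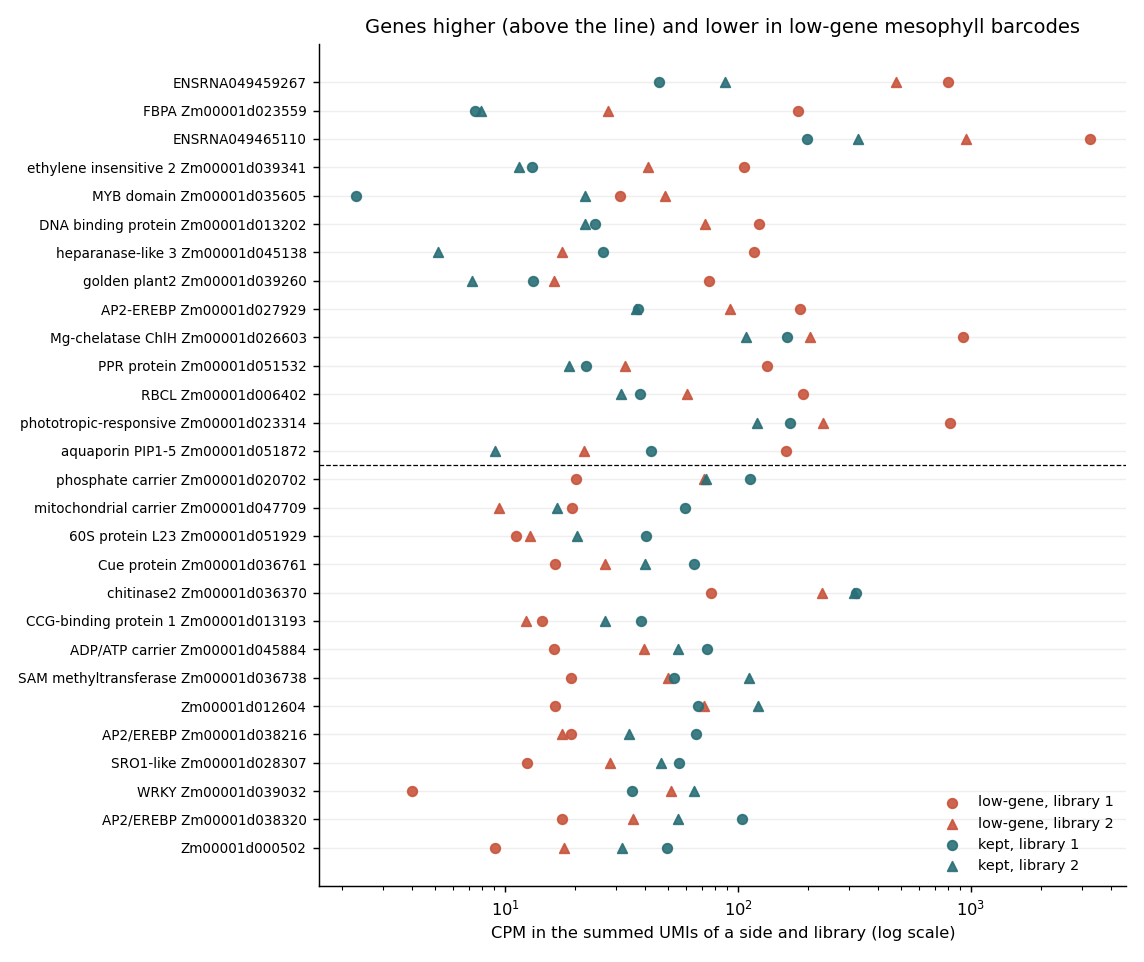
CPM on a log axis for called genes at 20 CPM or more on average, the 12 with and the 2 without a description that changed most in each direction (higher above the dashed line, lower below it), with red symbols for low-gene and green symbols for kept barcodes, circles for library 1 and triangles for library 2. The circles are mostly farther apart than the triangles. Within each library every low-gene symbol lies on the side that the line marks, which the choice of genes of one direction largely sets.

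Of the 28 genes in the plot of CPM by side, 28 lost their call without the library term, 25 with the organelle limits on both sides, 20 with at least 30 MS marker UMIs, 13 with over 1000 genes on the low-gene side, 2 with DESeq2 and 1 with MS markers at least 10 times BS markers. Under the other 8 alternatives run on all 28, none did. The genes still called with the organelle limits on both sides were FBPA (Zm00001d023559), ENSRNA049459267 and ENSRNA049465110.

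Small groups gave few calls. Of 7 aquaporin genes, which form water channels in membranes, 1 was higher and 0 lower (median log2 fold change 0.40). This is 14.3%, where 6.92% of all tested genes were called. The higher gene, PIP1-5 (Zm00001d051872), had 160 and 21.9 CPM in low-gene and 42.5 and 9.05 CPM in kept barcodes (1.49 ± 0.39, edgeR adjusted p 0.00553). Of 8 metallothionein genes, which bind metals, 0 were higher and 1 lower (12.5% called, median -0.07). The lower one (Zm00001d039914) had 20.7 and 76.0 CPM in low-gene and 35.2 and 213 CPM in kept barcodes (-1.25 ± 0.41, adjusted p 0.0359). The most abundant, metallothionein2 (Zm00001d029778), had log2 ratios of -0.80 in library 1 and 0.25 in library 2, and MT1b (Zm00001d048611) had 289 and 515 CPM in low-gene and 392 and 389 CPM in kept barcodes, so that both lay lower in library 1 and higher in library 2. The other 5 metallothionein genes had fitted values between -0.20 and 0.33. Of 5 tested genes of iron uptake and nicotianamine synthesis 0 passed (4 at an unadjusted p under 0.05 with edgeR, 0 with DESeq2). NAAT1 (Zm00001d053281), an aminotransferase of phytosiderophore synthesis, had 88 and 14 UMIs in low-gene and 4050 and 159 UMIs in kept barcodes (-1.17 ± 0.41, adjusted p 0.0518). TAAT (Zm00001d016441) had 25.0 and 16.6 CPM in low-gene and 47.8 and 22.4 CPM in kept barcodes. The nicotianamine synthase genes had at most 5 UMIs each in a low-gene sum, NAS10 (Zm00001d047658) having 3 and 0 UMIs in low-gene and 255 and 13 in kept barcodes, NAS1 (Zm00001d047651) 3 and 1 against 173 and 27, and NAS9 (Zm00001d028887) 5 and 1 against 169 and 7. NAS2 (Zm00001d028888) and NAS3 (Zm00001d033496) were not tested. A list of genes higher in bulk protoplasts than in leaves came from other samples. Of its 47 genes 3 were higher and 1 lower in low-gene barcodes (median -0.08), so that 8.51% were called, near the 6.92% of all tested genes.

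Along the number of detected genes, over all mesophyll barcodes whether or not they met the organelle limits, most of these values changed by degrees in both libraries. Noncoding RNA features took 14691 and 17475 CPM in barcodes with 300 to 600 genes, 5243 and 4574 CPM at 1400 to 1800 genes, 2695 and 2842 CPM at 1800 to 2400 genes and 809 and 1254 CPM above 4000 genes. Mitochondrial ribosomal RNAs went the same way, with 5731 and 8268 CPM at 300 to 600 genes and 331 and 249 CPM above 4000 genes. For other BS genes the lowest bin had 1465 and 997 nuclear CPM (CPM over nuclear UMIs alone), and the bin of 1800 to 2400 genes had 377 and 293. Above 4000 genes they had 284 in library 1. In library 2 they were up again at 394 there, above the 319 at 1400 to 1800 genes. Cytosolic ribosomal proteins ran the opposite way, with 5942 and 4977 nuclear CPM at 300 to 600 genes and 13286 and 11166 above 4000 genes. Glutathione transferases and peroxidases of library 1 stood at 8330 nuclear CPM at 1400 to 1800 genes and at 12478 at 1800 to 2400 genes, and in library 2 at 13897 and 15049. Library 2 came closest to the low level of library 1 at 300 to 600 genes, with 8845. Antenna genes stayed between 33896 and 40105 nuclear CPM in library 2. In library 1 they went from 62799 at 300 to 600 genes to 65405 at 1400 to 1800 genes. Above the limit they declined there, from 60513 at 1800 to 2400 genes to 48370 above 4000 genes.

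Just inside and just outside the limit the libraries differed. At 1600 to 1800 genes the median chloroplast share was 3.55% in library 1, against 2.73% at 1800 to 2000 genes. In library 2 the medians were 0.889% at 1600 to 1800 genes and 0.859% at 1800 to 2000 genes. Noncoding RNA features had 4710 and 4108 CPM in library 1 and library 2 just inside the limit and 3201 and 3285 CPM just outside it. Other BS genes had 533 and 318 nuclear CPM just inside and 445 and 298 just outside. These values, too, are a description without a test.

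**Figure D4:**
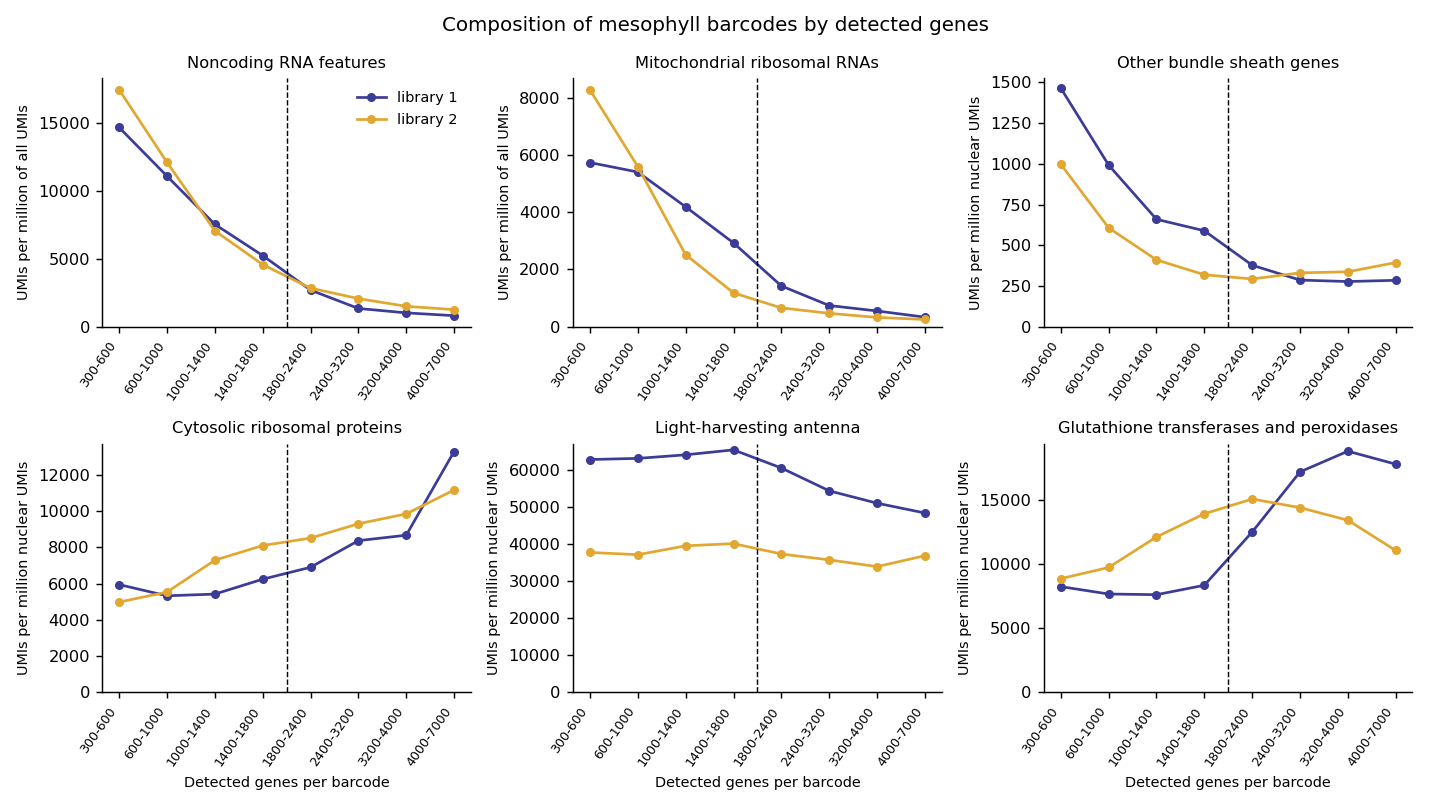
CPM of 6 gene groups (y axes, over all or over nuclear UMIs as stated) in 8 bins of detected genes per mesophyll barcode (x axes), barcodes outside the organelle limits included, with blue for library 1, yellow for library 2 and a dashed line at 1800 genes. Noncoding and mitochondrial ribosomal RNAs decline from the lowest bin onwards in both libraries, whereas cytosolic ribosomal proteins lie highest above 4000 genes, at 13286 and 11166.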

How the data were processed

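Protoplasts were profiled with a droplet-based kit as 2 libraries. The deposited values were raw UMI counts per gene and barcode, which the authors made with Cell Ranger 3.1.0 and STAR on the B73 RefGen_v4 genome with its Ensembl annotation. No normalization had been applied. Barcodes that Cell Ranger called as cells were used, and no doublet caller was run, since the study's limit of 7000 genes stood for it. The members, lists and tests were chosen with earlier results of these data known. Lists were built from gene descriptions in the study's supplementary material, whose values were not used. Most of these genes were described because the study picked them on these samples.

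UMIs were summed per library and side, because cells are not replicates, and tested with edgeR 4.0.16 (R 4.3.3, TMM scaling, filterByExpr, library as a term, Benjamini-Hochberg over all 17254 features). DESeq2 1.42.0 served as an alternative. With 1 residual degree of freedom the prior degrees of freedom were infinite, so p-values rest on a variance shared by genes, and an SE is the size of the log2 change over the root of its F statistic. The libraries are separate pools, and the library term takes up the level differences between them. What is left is how far the low-gene to kept ratios differ between libraries, pooled over genes. A gene whose own ratios differ widely can therefore still pass. The p-values of organelle features were used only in the fit whose kept side had no organelle limits, and those of the 7 markers in no fit. CPM are UMIs per 1000000 UMIs of a sum, with no scaling factor. Genes were named where called, of one direction in both libraries and at 20 CPM or more on average (12 described and 2 undescribed in each direction), with the extremes of each list and all members of the small lists. Simulated sums with 200 changed genes gave recovery of 70.7% at a log2 change of 2 and 8.3% at 1, with 4.2 false calls on average. They used the same gene proportions for every sum and the same dispersion for every gene, with no difference between libraries. Recovery in the real data may therefore differ. Intervals are at 95% and cover counting error only, as does the limit of 3 counts for a count of 0.

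The fit has the library as a block, since both sides of a library come from 1 pool. Of the alternatives, the library term was dropped, the scaling, filter and tool were changed, and both sides were redefined. No sequence is shown.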

Additional observations from a re-analysis of the deposited data

How the results depend on the processing

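The number of genes called (1186, of which 1080 were higher and 106 lower in low-gene barcodes) changed with most redefinitions of the sides. With DESeq2 it was 241 (214 higher, 27 lower), without a low-count filter 706 (588 higher), and with at most 1000 UMIs per barcode 2260 (1684 higher, 576 lower). Held to the organelle limits on both sides it was 24 (22 higher, 2 lower), with at least 30 MS marker UMIs 98 (91 higher, 7 lower), with over 1000 genes on the low-gene side 195 (184 higher, 11 lower), and with 1000 or fewer 5372 (2521 higher, 2851 lower). Without the library term, that is with no replicate block, it was 0 (0 higher, 0 lower), where 1295 genes had an unadjusted p under 0.05. Of the genes called lower, 164 passed with nuclear genes only and 68 with MS markers at least 10 times BS markers. The causes were not tested. With no scaling factor the median of all tested genes was 0.07 in place of -0.04, and 1553 genes passed. In the alternatives run on the named genes, 0 calls changed direction.

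At 500 UMIs per barcode the median of detected genes was 338 in low-gene and 356 in kept barcodes of library 1, and 347 and 355 in library 2. The share of low-gene barcodes was 39.0% and 41.1% of library 1 and library 2 with at least 5 MS marker UMIs, and 18.2% and 25.0% with at least 30. Leaving out a library leaves no test. The shallow low-gene sums, of 3766424 and 5707885 UMIs, limit rare genes, since a count of 0 allows up to 0.797 and 0.526 CPM.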
